A study of Homo sapiens with 12 samples.

Results

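The 44 genes described here code for the transport trains, motors, gate and cargo adaptors of the primary cilium and for 4 other ciliary proteins. Of these 4, NME5 belongs by function to motile cilia. The genes were listed by function as intraflagellar transport, BBSome, transition zone, ciliary motor and other ciliary genes. The list was drawn up because NME5 stood among the largest rises in the comparison that follows. NME5 is therefore given as a description with no test. The other 43 genes were listed by function and were tested in a fit over all genes. All 44 had an identifier among the 54127 genes of the count files, and all 44 passed the expression filter that left 14501 genes to test. The filter asked for 0.568 CPM before TMM scaling in at least 6 samples, which 43 reached in every sample and BBS1 in all SiCHKA but only 4 SiNTCONTROL samples. BBS1 is kept in the counts below, although passing in this way favours genes that are higher after SiCHKA. With all samples it did not pass the threshold of the test.

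C4-2, an established line of castration-resistant human prostate cancer cells from the LNCaP lineage, was grown in RPMI medium with 10% FBS and reverse transfected with 50 nM of an siRNA pool. The SiCHKA group (6 samples) received a pool against choline kinase alpha (CHKA), the enzyme that phosphorylates choline in the Kennedy pathway of phosphatidylcholine synthesis, and the SiNTCONTROL group (6 samples) received a nontargeting pool. The labels speak of flow sorted cells and give no time after transfection, and the sequences of the siRNAs are not given in the sources used here, so that an effect of losing CHKA and another effect of the pool cannot be told apart. A legend of the study speaks of biological triplicate experiments for its gene selection and of 6 biological replicates for single genes. The labels do not say that the samples came from separate cultures. It is therefore not certain that each group holds 6 independent units, and p-values measure the spread between these samples only. Polyadenylated RNA was sequenced, and between 10685184 and 24246055 reads per sample fell on genes.

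CHKA itself was measured at 1.91 to 4.67 CPM (median 2.31) after SiCHKA and at 36.7 to 43.3 CPM (median 41.6) after SiNTCONTROL. CPM here are read counts scaled by the size of each library and its TMM factor, which puts the libraries on a common scale. CHKA fell by 3.88 on the log2 scale (standard error, SE, 0.14; adjusted p = 5.89e-13). All adjusted p-values here are those of the edgeR quasi-likelihood fit, with Benjamini-Hochberg adjustment over every gene tested.

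Markers of luminal prostate cells were present in every sample, with HOXB13 at 253 to 361 CPM, KRT18 at 125 to 155 CPM and EPCAM at 97.2 to 148 CPM. The basal markers KRT5, KRT14 and TP63 summed to 1.57 to 2.10 CPM after SiCHKA and 0.981 to 1.46 CPM after SiNTCONTROL, nearly all of it KRT14, which rose by 0.58 on the log2 scale with no overlap. Of 4 fibroblast markers only COL1A1 passed the filter, at 26.8 ± 2.10 CPM after SiCHKA against 15.0 ± 2.33 CPM (SD, n = 6 in each group), and of 3 leukocyte markers only CD68 passed, at 4.88 ± 0.745 against 2.98 ± 0.473 CPM. Their part in the results below was not tested.

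The SiCHKA samples fell into a pair of sets. Over the 44 genes, replicates 1, 3 and 5 differed from each other, and replicates 2, 4 and 6 from each other, by a root mean square of 0.123 to 0.157 on the log2 CPM scale, whereas samples of different sets differed by 0.261 to 0.330. Pairs of SiNTCONTROL samples differed by 0.164 to 0.375. The labels name no batch behind these sets. The counts over the 43 genes other than NME5 and over the classes are therefore also given with each set alone, further below.

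A primary cilium is a single, nonmotile projection of the cell surface built on a centriole. Trains of the IFT-B and IFT-A complexes carry its building blocks outward with kinesin-2 and back with dynein-2, the BBSome moves membrane proteins as a cargo adaptor on these trains, and the transition zone at the base acts as the gate. The cilium serves as a platform for Hedgehog signalling, and it is taken down before mitosis because the centriole is needed at the spindle pole. Prostate cancer cells are known for carrying few cilia.

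RFX transcription factors bind a palindromic element, the X-box, in the promoters of many cilium genes. RefSeq promoter windows (GRCh38.p14, 250 bases before to 50 after the start) were found for 39 of the 44 genes. An X-box on either strand was found in 5 of these 39 (12.8%) and in 2.00% of 15842 protein-coding genes. Its core word GTTGCC, which can be part of an X-box and was searched on both strands, was found in 17 of 39 (43.6%) against 16.2%. The forkhead word GTAAACA, the core that FOXJ1 binds, was found on either strand in 1 of 39, IFT20, against 3.75%. The X-boxes are shown because RFX factors are the known regulators of this gene group. The lines give the gene strand, 5′ to 3′, with the X-box in capitals.
IFT57 (chr3:108222407-108222436, minus strand): tgtccggtgGTCGCCTGGTAACcggtcgtg
IFT122 (chr3:129440204-129440233, plus strand): gcatgtacGTTGCCAGGGGTAACgcaggta
B9D1 (chr17:19378085-19378114, minus strand): ctgggactGTTACCTTGGCTACtggctccc
TCTN1 (chr12:110614120-110614149, plus strand): gctgtcgcgGTTGCCGGGCAACgcgctgtc
TCTN3 (chr10:95694122-95694151, minus strand): tcactgacgGTTGCCAGGCAACggaggcac
Of these 5 genes, B9D1, TCTN1 and IFT57 rose after SiCHKA (below), and IFT122 and TCTN3 did not pass the threshold. Their median log2 fold change was 0.24, and that of the 34 genes with a window but no X-box, NME5 among them, was 0.45. The window of NME5 held none of the 3 motifs.

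Apart from NME5, 28 of 43 cilium genes (65.1%) rose after SiCHKA, 2 fell and 13 did not pass an adjusted p-value of 0.05. Among all 14501 genes tested, 32.1% were higher and 30.1% were lower. Their median on the log2 scale was a fold change of 0.45, against 0.035 over all genes tested. In 23 of the 43 genes every SiCHKA sample lay above every SiNTCONTROL sample, and in 1, IFT80, every SiCHKA sample lay below; 19.1% and 21.5% of all genes tested were separated in these ways. The genes were chosen in view of this comparison, so the shares describe the list and are not a test of it. With library size alone as the scale the median of all genes moved up by 0.15. All genes then split into 6666 higher and 2995 lower in place of 4650 and 4371. The cilium genes apart from NME5 split into 33 higher and 1 lower in place of 28 and 2.

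**Figure D1:**
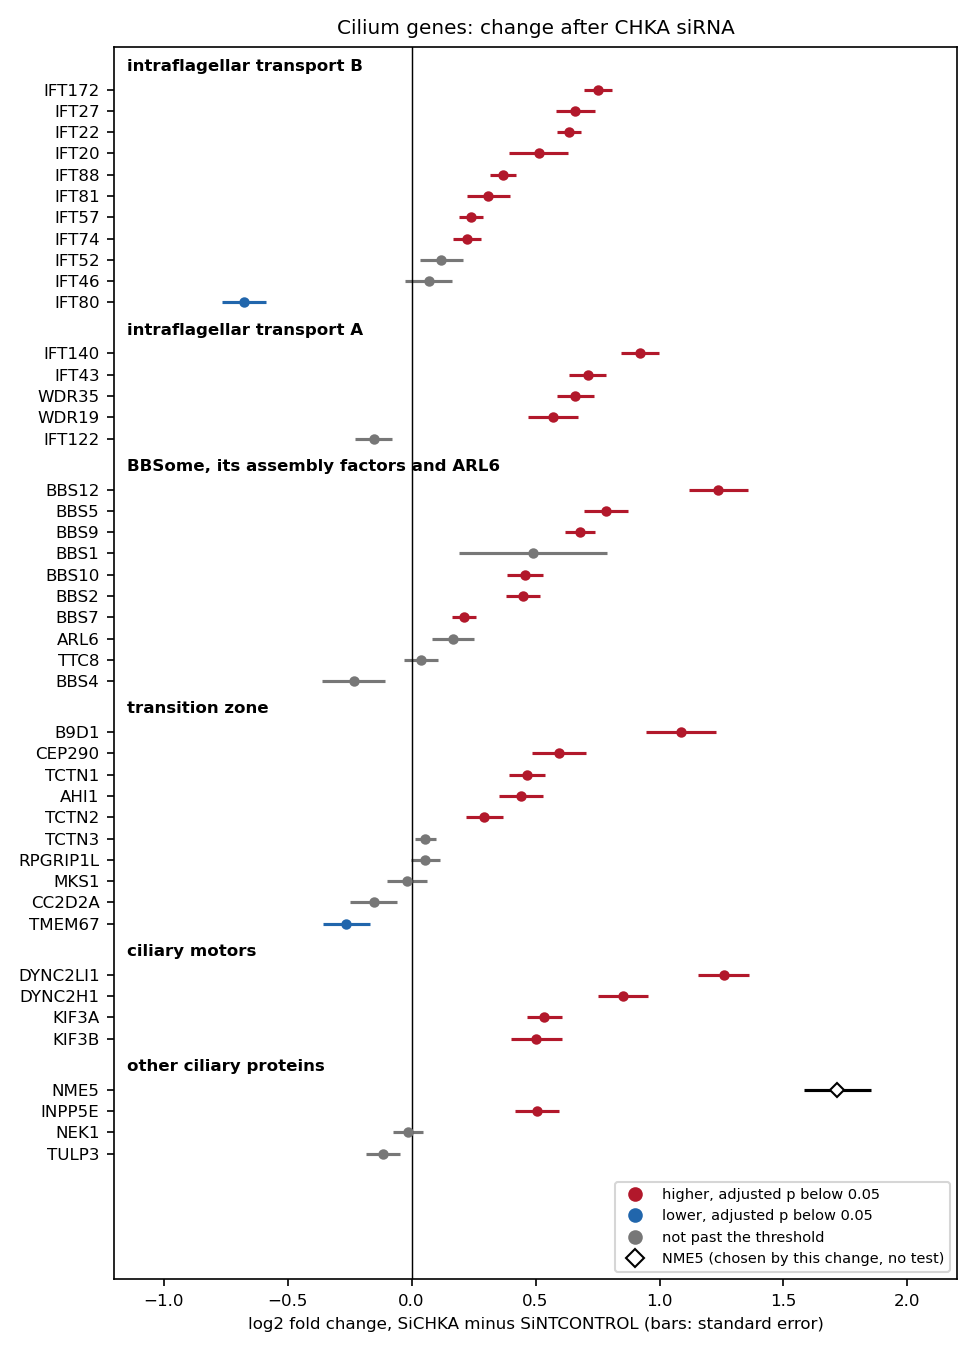
Log2 fold change of each of the 44 cilium genes, SiCHKA minus SiNTCONTROL (horizontal axis), with the standard error as a bar and genes grouped by complex; red marks genes higher and blue genes lower at an adjusted p-value below 0.05, grey the rest, and the open diamond NME5, which has no test. Most points lie to the right of 0, from 0.21 to 1.26 for the genes that rose, and IFT80 at -0.68 lies farthest to the left.

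NME5 (ENSG00000112981, chromosome 5 from 138115175 to 138139443 on the minus strand, GRCh38) codes for a nucleoside diphosphate kinase-like protein of the radial spokes of motile cilia. It was measured at 12.3 to 18.8 CPM with a median of 16.3 after SiCHKA and at 3.77 to 6.32 CPM with a median of 4.45 after SiNTCONTROL. The lowest SiCHKA sample was above the highest SiNTCONTROL sample. Its log2 fold change was 1.72 (SE 0.14), a 3.29-fold higher level. Within SiCHKA, replicates 2, 4 and 6 (18.8, 17.9 and 17.9 CPM) were above replicates 1, 3 and 5 (14.7, 13.5 and 12.3 CPM), and the log2 fold change was 1.90 with the former and 1.49 with the latter.

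Of 11 IFT-B genes, whose products form the part of the train that carries tubulin and other cargo to the tip, 8 rose and 1 fell, with a median log2 fold change of 0.31. IFT172, a large peripheral subunit that binds to vesicles and takes part in the turn of the trains, was measured at 37.9 to 42.0 CPM (median 40.3) after SiCHKA and at 21.7 to 25.7 CPM (median 24.5) after SiNTCONTROL. The groups were far apart compared with their own spread, and the log2 fold change was 0.75 (SE 0.06, adjusted p = 6.29e-09). IFT27, a small GTPase that links the train to the BBSome, ran from 38.0 to 50.6 CPM against 24.7 to 30.3 CPM, a log2 fold change of 0.66 (SE 0.08, adjusted p = 1.58e-06). IFT22, the second small GTPase of the complex, ran from 63.5 to 73.6 CPM against 41.7 to 46.6 CPM, a log2 fold change of 0.63 (SE 0.05, adjusted p = 6.10e-09). For both GTPases the groups did not overlap. The other 5 that rose had log2 fold changes from 0.22 to 0.51. They were IFT20, a subunit that also sits at the Golgi, IFT74 and IFT81, which together bind tubulin, IFT57, a peripheral subunit, and IFT88, a core subunit without which cilia do not form. The groups overlapped for IFT20 and IFT81. IFT46 and IFT52, which sit in the core of the complex, did not pass the threshold.

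IFT80, an IFT-B subunit whose loss impairs Hedgehog signalling and bone growth, went the other way. It was measured at 15.5 to 22.6 CPM (median 17.9) after SiCHKA and at 26.5 to 32.0 CPM (median 29.0) after SiNTCONTROL, with no overlap. The log2 fold change was -0.68 (SE 0.09, adjusted p = 3.91e-06). Its exons overlap those of SMC4, a condensin subunit, on the other strand of chromosome 3, and SMC4 had a log2 fold change of -1.32 (SE 0.05, adjusted p = 1.44e-12). Whether the counting used strand is not given in the sources used here, and without strand the reads of such a pair cannot be told apart and may have been left out as ambiguous. Exons of ENSG00000248710 overlap those of IFT80 on the same strand, where strand does not tell shared reads apart either.

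**Figure D2:**
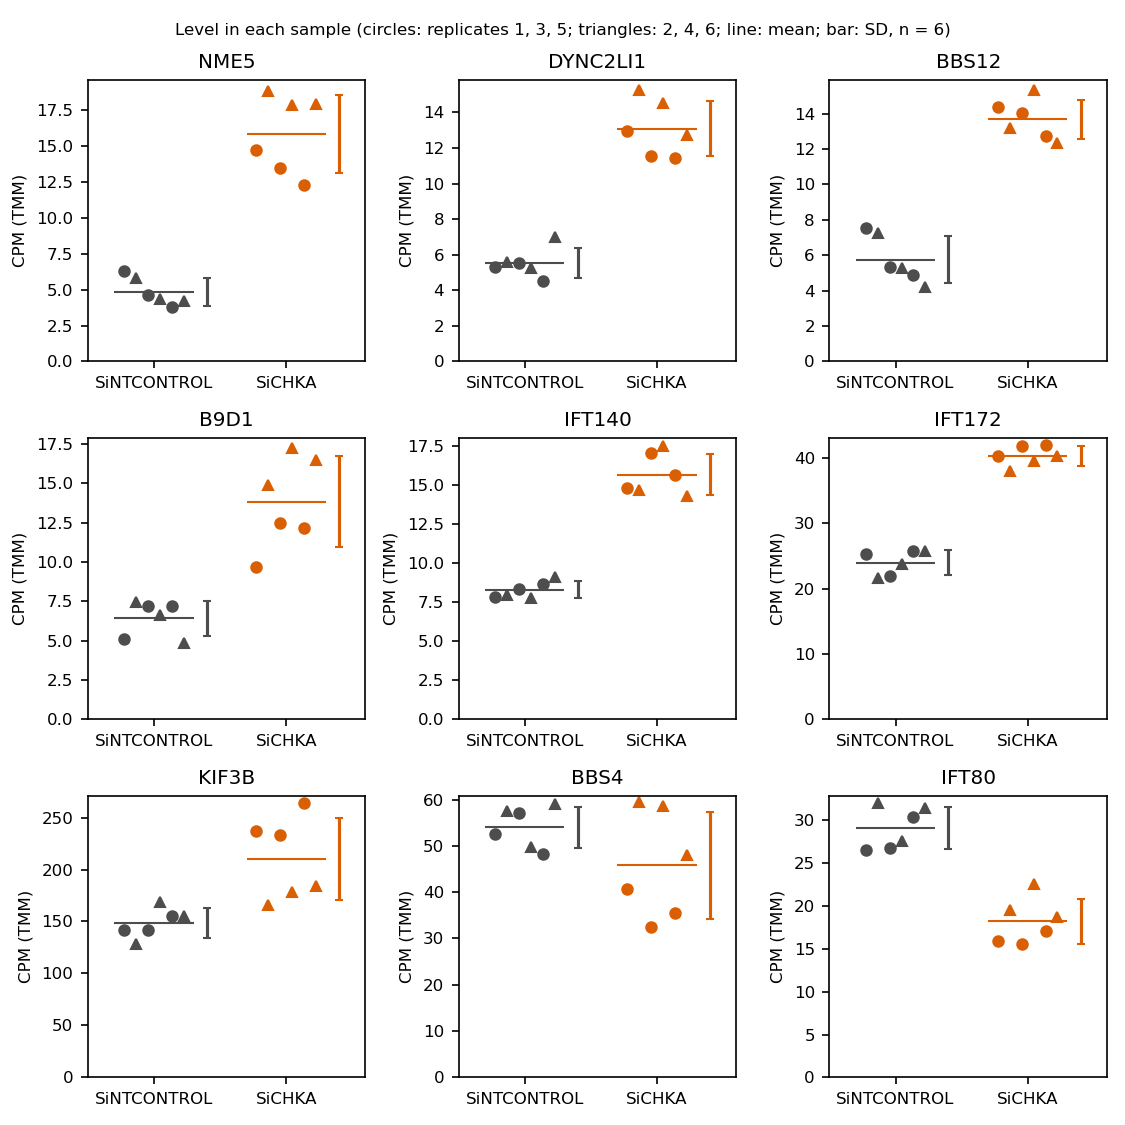
CPM after TMM scaling (vertical axes, from 0) of 9 cilium genes in each of the 12 samples, with circles for replicates 1, 3 and 5, triangles for replicates 2, 4 and 6, lines for group means and bars for the SD (n = 6). NME5, DYNC2LI1, BBS12, B9D1, IFT140 and IFT172 are higher in every SiCHKA sample than in any SiNTCONTROL sample, IFT80 is lower in every SiCHKA sample, and the circles and triangles of KIF3B and BBS4 separate within SiCHKA.

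IFT-A subunits carry cargo back to the cell body and bring membrane proteins into the cilium. Of the 5 listed, 4 rose and none fell, with a median log2 fold change of 0.66, and all 4 had groups that did not overlap. IFT140, a core subunit, was measured at 14.3 to 17.5 CPM (median 15.3) after SiCHKA and at 7.78 to 9.15 CPM (median 8.17) after SiNTCONTROL. Every SiCHKA sample was well above the control range, and the log2 fold change was 0.92 (SE 0.08, adjusted p = 1.42e-08). IFT43, a small subunit, rose by 0.71 on the log2 scale (SE 0.08, adjusted p = 3.34e-07), from 15.9 to 19.5 CPM in SiNTCONTROL samples to 25.1 to 31.7 CPM. WDR35, which is also known as IFT121, rose by 0.66 (SE 0.08, adjusted p = 8.63e-07), and WDR19, known as IFT144, by 0.57. IFT122 was the exception, at 24.7 to 28.2 CPM against 22.6 to 32.2 CPM, a log2 fold change of -0.15 (adjusted p = 0.0867) with groups that overlapped.

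The BBSome is an octamer that moves receptors out of the cilium, BBS10 and BBS12 are chaperonin-like proteins needed to assemble it, and ARL6 is the GTPase that recruits it to membranes. Of these 10 genes, 6 rose and none fell, with a median log2 fold change of 0.45. BBS12 rose most, from 4.19 to 7.51 CPM (median 5.32) after SiNTCONTROL to 12.3 to 15.3 CPM (median 13.6) after SiCHKA. This was a 2.36-fold higher level, with a log2 fold change of 1.24 (SE 0.12, adjusted p = 1.02e-07). BBS5, a subunit that binds phosphoinositides, rose by 0.78 (SE 0.09, adjusted p = 6.19e-07), from 5.36 to 6.93 CPM to 9.68 to 11.9 CPM. BBS9, a core subunit, rose by 0.68 (SE 0.06, adjusted p = 4.46e-08), from 16.2 to 18.6 CPM to 26.6 to 30.5 CPM. The rises of BBS2, BBS7 and BBS10 were between 0.21 and 0.46, and all 6 genes that rose had groups that did not overlap. BBS1, BBS4, TTC8 and ARL6 did not pass the threshold. Of these BBS1 had few counts, at 0.412 to 1.62 CPM in the SiNTCONTROL samples, where 3 counts correspond to 0.124 to 0.281 CPM. Its exons overlap those of ENSG00000256349 on the same strand, and shared reads may have been left out as ambiguous.

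Of 10 transition zone genes, 5 rose, 1 fell and 4 did not pass the threshold, and the median log2 fold change was 0.17. B9D1, a B9 domain protein of the MKS module whose promoter window holds the X-box shown above, ran from 9.68 to 17.3 CPM (median 13.7) after SiCHKA and from 4.87 to 7.45 CPM (median 6.92) after SiNTCONTROL. The groups were separate, although the SiCHKA samples were spread widely, and the log2 fold change was 1.09 (SE 0.14, adjusted p = 4.13e-06). CEP290, which ties the membrane of the transition zone to its microtubules, ran from 29.5 to 34.3 CPM against 15.3 to 26.7 CPM, a log2 fold change of 0.59 (SE 0.11, adjusted p = 0.000146). TCTN1, a tectonic protein with an X-box at its start, rose by 0.46 (SE 0.07, adjusted p = 3.07e-05). AHI1 and TCTN2 rose by 0.44 and 0.29 with groups that overlapped. TMEM67, the membrane protein meckelin, was the gene that fell, from 16.6 to 21.3 CPM to 13.5 to 19.2 CPM, with a log2 fold change of -0.26 (SE 0.09, adjusted p = 0.0217). That call rested on the samples and the scale used. Without SiCHKA replicate 3 the adjusted p was 0.0519, and with SiCHKA replicates 2, 4 and 6 alone it was 0.303. With library size alone as the scale the log2 fold change was -0.11 (adjusted p = 0.353). The call was also lost with replicates 4 to 6 of each group and with 1 count file per sample.

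All 4 motor genes rose, with a median log2 fold change of 0.69. DYNC2LI1, the light intermediate chain of dynein-2, was measured at 11.5 to 15.3 CPM (median 12.8) after SiCHKA and at 4.53 to 7.01 CPM (median 5.41) after SiNTCONTROL. Of the 43 tested cilium genes it had the highest log2 fold change, 1.26 (SE 0.10, adjusted p = 1.60e-08), next to that of BBS12, from which it differed by less than their standard errors. DYNC2H1, the dynein-2 heavy chain that does the work of retrograde transport, ran from 47.4 to 58.7 CPM against 24.0 to 36.2 CPM, a log2 fold change of 0.85 (SE 0.10, adjusted p = 1.14e-06). KIF3A, a motor subunit of kinesin-2, rose by 0.53 (SE 0.07, adjusted p = 4.31e-06), from 53.8 to 72.5 CPM to 83.3 to 95.6 CPM. Its partner KIF3B had a log2 fold change of 0.50 (SE 0.10, adjusted p = 0.00046), with groups that overlapped slightly.

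The other subunits of these motors and trains, taken from a list of 18 further transport genes, did not all follow. KIFAP3, which joins KIF3A and KIF3B into the working kinesin-2, rose by 0.87 (SE 0.07, adjusted p = 1.48e-08), from 18.6 ± 1.51 to 33.9 ± 3.01 CPM (SD, n = 6). The dynein-2 light chain gene DYNLT2B rose by 1.10 (SE 0.11, adjusted p = 1.22e-07), from 5.34 ± 0.748 to 11.4 ± 1.39 CPM. The dynein-2 intermediate chain gene DYNC2I2, in contrast, had a log2 fold change of -0.70 (SE 0.08, adjusted p = 9.33e-07), from 61.6 ± 4.76 to 38.1 ± 5.35 CPM. TTC21B, the sixth subunit of IFT-A, had one of -0.86 (SE 0.07, adjusted p = 5.11e-09), from 84.3 ± 3.84 to 46.3 ± 5.01 CPM. For these 4 genes the groups did not overlap, so that subunits of the same complex moved apart. Over the 17 genes of this list that could be tested, 7 rose, 7 fell and the median log2 fold change was -0.11. With library size alone as the scale 7 rose, 4 fell and the median was 0.042.

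**Figure D3:**
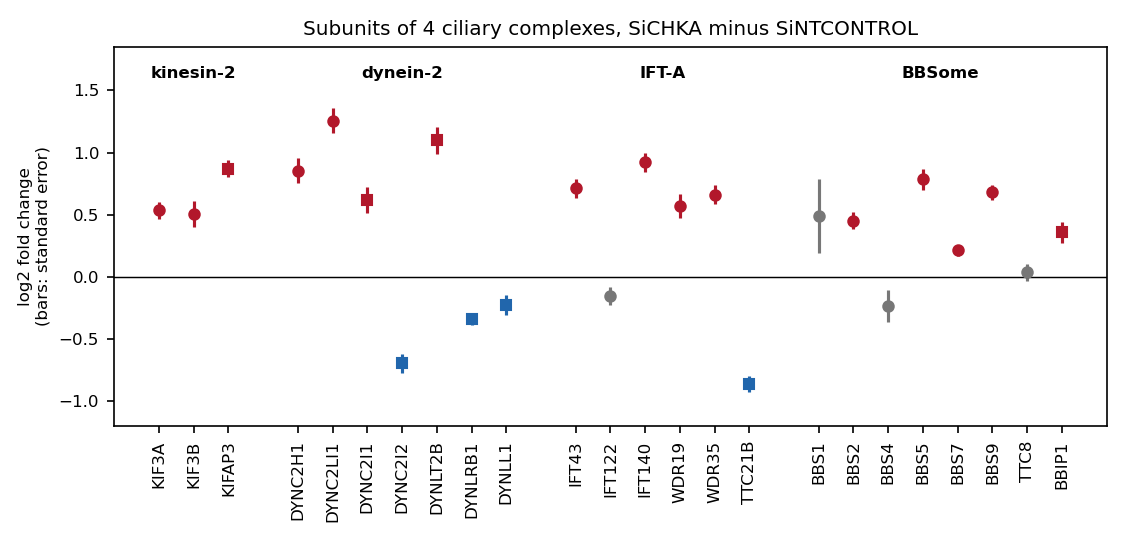
Log2 fold change, SiCHKA minus SiNTCONTROL (vertical axis), with its standard error, of subunits of kinesin-2, dynein-2, IFT-A and the BBSome; circles are genes of the 44, squares further subunits, and red, blue and grey mark higher, lower and not past the threshold. All 3 kinesin-2 genes lie above 0, whereas DYNC2I2 at -0.70 and TTC21B at -0.86 lie below 0 in complexes that also hold genes well above 0.

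Of the remaining listed genes, INPP5E, the phosphoinositide phosphatase of the ciliary membrane, rose by 0.51 (SE 0.09, adjusted p = 9.44e-05), from 9.28 to 13.5 CPM to 13.6 to 17.8 CPM, with no overlap. TULP3, the adaptor that brings receptors to the IFT-A complex, and NEK1, a kinase linked to cilium formation, did not pass the threshold. The log2 fold changes of all 13 genes that did not pass lay between -0.23 for BBS4 and 0.49 for BBS1, the gene that met the filter only with SiCHKA.

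Some of the genes that did not pass differed between the sets of SiCHKA samples. BBS4, a BBSome subunit that also binds pericentriolar material, was measured at 40.7, 32.6 and 35.5 CPM in SiCHKA replicates 1, 3 and 5 and at 59.4, 58.6 and 48.0 CPM in replicates 2, 4 and 6, against 48.3 to 59.0 CPM in the SiNTCONTROL samples. The first set lay below every control, and of the second set only replicate 6 did, by a small margin. With replicates 1, 3 and 5 alone the log2 fold change of BBS4 was -0.57, and with replicates 2, 4 and 6 alone it was 0.029. With all SiCHKA samples the edgeR adjusted p was 0.121. KIF3B showed the sets in the other order, with 237, 233 and 264 CPM in replicates 1, 3 and 5 and 166, 178 and 184 CPM in replicates 2, 4 and 6. Its log2 fold change was 0.72 with the former and 0.24 with the latter. Apart from NME5, 28 of 43 genes were higher and 4 lower with replicates 1, 3 and 5, and 33 were higher and 2 lower with replicates 2, 4 and 6. The 33 include BBS1, which passed the main filter only with the SiCHKA samples. IFT80 was among the lower genes both times. By class, the IFT-B genes gave 8 higher and 1 lower with replicates 1, 3 and 5 and 10 and 1 with replicates 2, 4 and 6. The BBSome genes gave 6 and 1 against 9 and 0, with BBS1 among the 9. The transition zone genes gave 5 and 2 against 5 and 0. The IFT-A genes (4 higher) and the motors (4 higher) gave the same counts in both sets, and the other 3 genes gave 1 and 0 against 1 and 1. No difference between the sets was tested, since the sets were seen in these data. For the same reason the counts by set only describe how the calls depend on the samples.

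**Figure D4:**
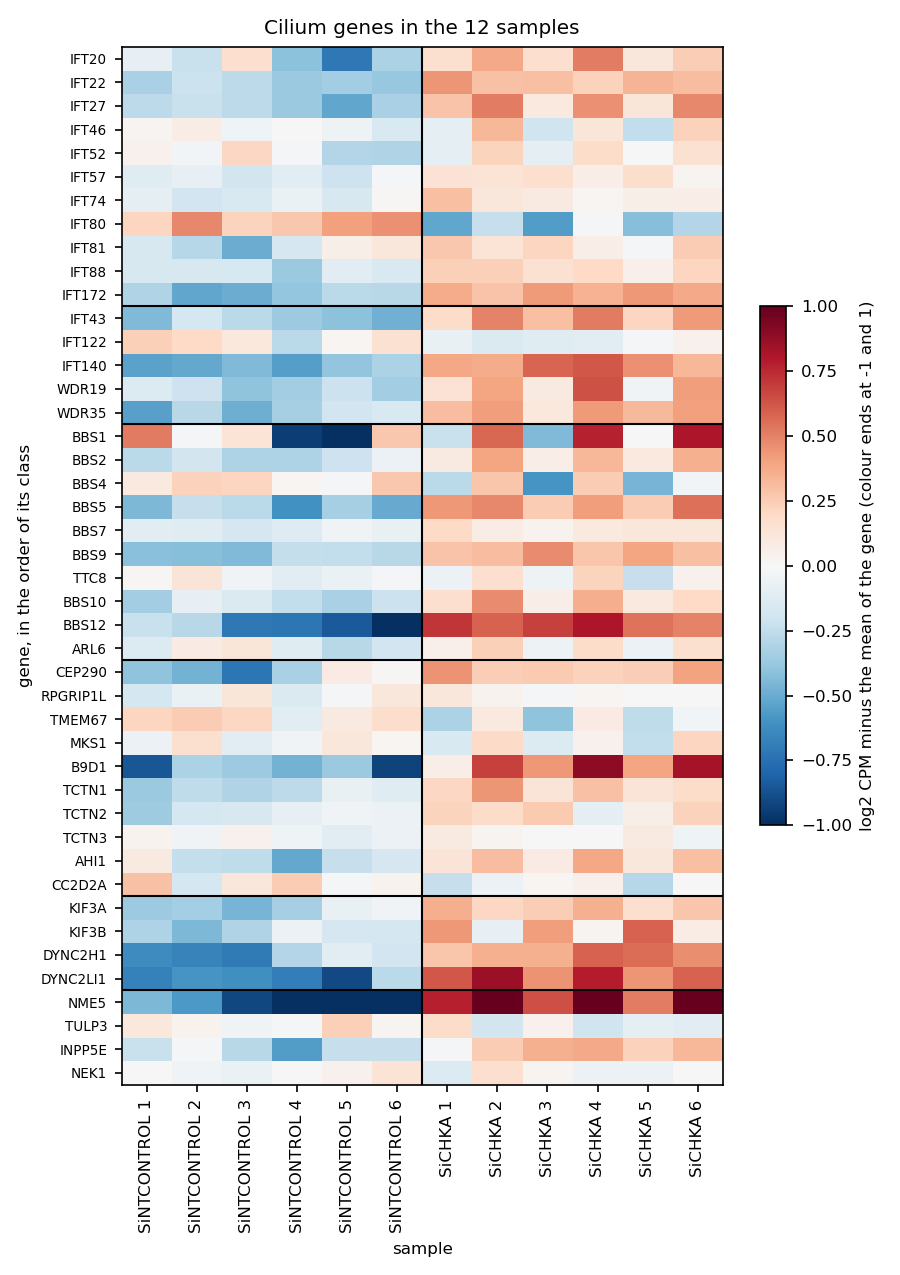
Log2 CPM of the 44 cilium genes minus the mean of each gene over the 12 samples (red above, blue below, colours ending at -1 and 1), with genes in rows by class, separated by lines in the order IFT-B, IFT-A, BBSome, transition zone, motors and others, and samples in columns, SiNTCONTROL on the left. NME5, DYNC2LI1, BBS12 and B9D1 show the strongest contrast between the sides, IFT80 shows the opposite one, and SiCHKA columns alternate for genes such as BBS4.

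Levels were compared between genes per kilobase of exonic length, in the SiNTCONTROL samples. This length joins all exons that GENCODE release 44 gives for a gene, 31.6 kb for AHI1 and 25.1 kb for CEP290. It can exceed the length of the transcripts in these cells, which lowers the value. The order of genes and classes therefore depends on the annotation as well as on the counts. The 44 genes had a median of 2.63 CPM per kilobase, against 4.97 over 13962 tested genes with a length. KIF3B stood highest, at 24.3 ± 2.31 CPM per kilobase (SD, n = 6), followed by IFT52 at 16.0 ± 2.18 and BBS10 at 15.1 ± 1.09, a pair whose order lies within their spread. BBS1 was lowest, at 0.172 ± 0.0760, below AHI1 at 0.455 ± 0.0616, though reads shared with overlapping genes may be missing from these counts. The kinesin-2 subunits were not measured at equal levels: KIF3A stood at 9.04 ± 1.11 and KIFAP3 at 3.74 ± 0.303 CPM per kilobase. Of the class medians, that of the motors was highest, at 5.50, and that of the transition zone was lowest, at 1.41.

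Further genes of the cilium were taken from lists by function. Of 25 further transition zone and basal body genes, 7 rose and 9 fell, with a median log2 fold change of -0.019 (8 and 5 with library size alone, median 0.13). TMEM231, a membrane protein of the transition zone, rose by 0.71 (SE 0.07, adjusted p = 2.90e-07). CEP41, a centrosomal protein needed for tubulin glutamylation in cilia, had a log2 fold change of -0.87 (SE 0.06, adjusted p = 1.09e-09) and ALMS1, a basal body protein, one of -0.83. Of 14 genes for delivery to the ciliary membrane, 5 rose and 4 fell, with a median of 0.062 (9 and 3 with library size alone, median 0.21). ARL3, the GTPase that releases lipidated cargo inside the cilium, rose by 0.76 (SE 0.05, adjusted p = 2.13e-10), and PDE6D, the carrier of prenylated cargo that it unloads, rose by 0.68 (SE 0.07, adjusted p = 2.83e-07). ADCY3 and RAB23, an adenylyl cyclase of cilia and a GTPase that restrains Hedgehog signalling, had log2 fold changes of -0.43 and -0.33.

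Of 19 Hedgehog pathway genes, 9 passed the expression filter in both groups, and of these 1 rose and 2 fell. A further 3 passed it only with the SiCHKA samples and are not counted here, since passing in this way favours genes that are higher in that group. The ligand genes SHH, IHH and DHH did not pass the expression filter. PTCH1, the Hedgehog receptor and itself a target gene of the pathway, fell from 41.4 ± 3.85 to 26.0 ± 1.96 CPM (SD, n = 6), by -0.67 on the log2 scale (SE 0.07, adjusted p = 2.70e-07). KIF7, the kinesin at the ciliary tip that controls GLI factors, fell from 4.48 ± 1.13 to 1.61 ± 0.409 CPM, a log2 fold change of -1.47 (SE 0.20, adjusted p = 5.35e-06). SUFU, the inhibitor that holds GLI factors in the cytoplasm, rose by 0.64. HHAT, the ligand acyltransferase, was among those 3, at 0.725 to 1.34 CPM after SiCHKA and at 0.177 to 0.512 CPM after SiNTCONTROL, and is given with no test.

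The genes that hold back or take down the cilium went mostly the other way. Of 11 such genes, 8 fell and 1 rose, with a median log2 fold change of -1.06. PLK1, a mitotic kinase that promotes disassembly, fell from 165 ± 8.71 to 57.3 ± 3.04 CPM (SD, n = 6), with a log2 fold change of -1.52 (SE 0.05, adjusted p = 2.00e-13). CCP110, which caps the centriole and blocks cilium growth, fell from 62.3 ± 5.66 to 24.3 ± 2.40 CPM, a log2 fold change of -1.35 (SE 0.07, adjusted p = 6.67e-11). HDAC6, the tubulin deacetylase of disassembly, was the gene that rose, by 0.73 (SE 0.07, adjusted p = 1.09e-07). Several of these genes are also genes of the cell cycle, and all 8 proliferation genes listed beside them fell, CCNA2 with a log2 fold change of -1.70 and TYMS with one of -1.63. The 8 summed to 1068 to 1140 CPM in the SiCHKA samples and to 2561 to 2812 CPM in the SiNTCONTROL samples. Their part in the changes of the cilium genes was not tested, and in bulk RNA fewer cycling cells and less RNA per cell cannot be told apart.

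Of the transcription factors of cilium genes, 9 passed the filter in both groups, and 7 fell and 1 rose. The number that fell depended on the scale and the samples: it was 2 with library size alone, 3 with replicates 1 to 3 of each group and 4 with replicates 4 to 6, out of 10 tested. MYB, a factor of the multiciliated cell program and of proliferating cells, fell from 13.1 ± 1.45 to 1.89 ± 0.429 CPM (SD, n = 6), with a log2 fold change of -2.81 (SE 0.13, adjusted p = 6.51e-12). RFX7 fell too, with a log2 fold change of -0.59 (SE 0.10, adjusted p = 5.09e-05). RFX1 rose by 0.25 (adjusted p = 0.0271), a call that was lost under 10 of 23 alternatives, among them the omission of SiCHKA replicate 3 or 5 or of SiNTCONTROL replicate 1, 3 or 4. FOXJ1, the master factor of motile cilia, had 0 to 3 counts per sample and was not tested.

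Genes of motile cilia, to which NME5 belongs by function, were mostly low. Of 28 listed, 27 had an identifier and 12 passed the filter in both groups, of which 8 rose and none fell. The other 4 that were tested did not reach it in every sample, and those named here are given with no test. RSPH1, a radial spoke head protein, was measured at 5.46 to 6.13 CPM after SiCHKA and at 0.512 to 1.28 CPM after SiNTCONTROL, with 1 control sample under the filter. PIFO, which codes for Pitchfork, a protein of the ciliary base, ran from 1.14 to 1.98 CPM against 0.248 to 0.512 CPM, with every control sample under the filter. Both had groups that did not overlap. SPAG17, a protein of the central pair apparatus, was measured at 0.242 to 0.968 CPM after SiCHKA and at 0.981 to 1.37 CPM after SiNTCONTROL, and passed only with the latter. TEKT1 had no count in any sample.

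Of the 8 relatives of NME5 in the NME family, 4 passed the filter in both groups, and 2 rose and 1 fell. NME3 rose by 0.55 (SE 0.07, adjusted p = 2.23e-06), from 20.4 ± 1.16 to 29.9 ± 2.80 CPM (SD, n = 6). NME4, the mitochondrial member, passed only with the SiCHKA samples, at 0.726 to 2.22 CPM against 0.588 to 1.53 CPM, with groups that overlapped. NME1, the abundant housekeeping member, stood at a log2 fold change of -0.24 (adjusted p = 0.00778) with groups that overlapped. Its call was lost with library size alone and with replicates 4 to 6 of each group. NME2, NME8 and NME9 were not tested. NME5 was picked for its large rise, so its fold change is not set against those of its relatives.

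Reads of overlapping genes limit single values. Exons of 20 of the 44 genes overlap those of another gene of the files in GENCODE release 44. IFT140 rose while TELO2, on the other strand at the same place, had a log2 fold change of -0.70, and IFT20 rose while TMEM97, its partner on the other strand, had one of -0.82. Other partners moved in the direction of the cilium gene. ZDHHC24 rose by 0.68 beside BBS1, MBD4 had a log2 fold change of -0.37 beside IFT122, and RHNO1, on the same strand as TULP3, had one of -0.52, whereas these 3 cilium genes did not pass the threshold themselves.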

How the data were processed

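RNA of 12 samples was measured, 6 per group, with groups and replicate numbers from the sample titles. The authors mapped 40-base single-end reads onto GRCh37 (TopHat2 2.0.4), assigned them to Ensembl genes (HTSeq 0.5.3p9; versions per the submitters' processing notes) and deposited raw counts in 4 files per sample, which were summed here. Lines that name no gene (33.9% to 39.0% of what the files counted, mostly reads with several alignments) were left out. Symbols, lengths and coordinates are of GENCODE release 44 (GRCh38), which named 82.8% of 54127 identifiers.

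Genes kept by filterByExpr (14501) were tested in edgeR 4.0.16 (R 4.3.3) with TMM scaling and the quasi-likelihood test without covariates, at a Benjamini-Hochberg adjusted p-value of 0.05; SE was taken from the fold change over the root of F. In these libraries 3 counts correspond to 0.124 to 0.281 CPM (counting error only). The fit was first checked on simulated counts.

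The members and lists were chosen with earlier results of these data known. Named were NME5, CHKA, up to 3 members of each class and up to 2 genes of each other list per direction, by absolute log2 fold change among those past the threshold; some of these are not reported here. Others given a value (smaller rises, genes that did not pass, SUFU, overlapping genes) were chosen after their values were seen. Alternatives were RLE, DESeq2 1.42.0, other filters, a replicate block, subsets of samples, each library left out, 1 count file per sample, a minimum log2 fold change of 0.5 and, added after seeing the data, library size alone. Same-numbered samples did not deviate together (correlations from -0.396 to 0.320), so the numbers were not taken as pairs.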

Additional observations from a re-analysis of the deposited data

Results flagged for a closer look

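In 164 groups of 6 samples (82 genes, both groups), the highest or lowest sample stood far from the others on the log2 CPM scale in 4, and chance alone gives about 8.2. IFT74 in SiCHKA replicate 1 was at 57.1 CPM, above the 47.1 to 50.1 CPM of the other 5, with a gap of 0.675 of the group's range. IFT88 in SiNTCONTROL replicate 4 was at 31.8 CPM, below 36.8 to 38.3 CPM, a gap of 0.783. WDR35 in SiCHKA replicate 3 was at 27.8 CPM, below 32.0 to 34.7 CPM, a gap of 0.63. RPGRIP1L in SiCHKA replicate 1 was at 33.9 CPM, above 31.0 to 32.0 CPM, a gap of 0.645. The calls of these 4 genes were the same without that sample.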

How the results depend on the processing

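The log2 fold change of CHKA lay between -4.27 and -3.59 and passed the threshold in each of 23 alternatives. Of the 43 tested cilium genes, 21 that rose and 1 that fell (IFT80) kept their call under every alternative that could test them, 2 did not pass under any, 19 gained or lost a call under at least 1, and none changed direction past the threshold. Counting NME5, 29 cilium genes were higher and 2 lower with the replicate block, as without it. With at least 0.5 on the log2 scale 19 were higher and 1 lower, against 2348 higher and 2025 lower among all genes. NME5 is among the higher genes in these counts, although it is given no test. The lower cilium genes numbered 1 with 1 count file per sample, 1 with library size alone and 4 with SiCHKA replicates 1, 3 and 5; leaving out single libraries gave 1 (without SiCHKA replicate 3) to 3. The median log2 fold change of the 44 was 0.34 with SiCHKA replicates 1, 3 and 5, 0.54 with replicates 2, 4 and 6, 0.36 with replicates 4 to 6 of each group and 0.61 with library size alone, which moved all genes by 0.15. Leaving out single libraries gave 0.40 to 0.48. The causes were not tested.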

Other observations

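Reads counted outside annotated genes made up 4.82% to 5.97% of what the SiCHKA files counted. In the SiNTCONTROL files this share was 3.95% to 4.90%, so the ranges barely overlap. The totals behind these shares include alignments that were not unique, at 27.6% to 30.6% in SiCHKA and 26.1% to 29.7% in SiNTCONTROL files. NME2 and NME8 had no count in any sample. This does not show that they are silent, since reads with several alignments or ambiguous between overlapping genes were left out.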
